A study of Mus musculus with 39 samples.

Results

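Cholesterol is built from acetyl-CoA by a chain of enzymes whose genes are switched on together when a cell is short of sterol. Of that chain, 8 genes are described here in the white fat around the epididymis of mice on a control or a high fat diet: Hmgcs1, Idi1, Fdps, Fdft1, Sqle, Lss, Cyp51 and Insig1. They were taken by name, as the probes whose gene name in the array files is one of the 8, out of 29411 gene names on the array, and each gene is represented by the brightest of its probes. The first 7 encode enzymes of the pathway and Insig1 encodes a regulator of it, so none of the 8 takes up cholesterol from outside the cell, and genes of uptake were followed in a separate list.

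The mice were C57BL/6J, weaned at 3 to 4 weeks of age. The LFC group ate a control diet with 10% of its calories from fat. It was sampled on 11 arrays, taken on days 1, 6, 10 and 14 and every 3 weeks from week 0 to week 18. The HFC group ate a diet with 60% of its calories from fat and more sucrose and was sampled on 10 arrays, from day 6 on. The HF5, HF20 and HF75 groups ate the HFC diet with 5, 20 or 75 µg of KAL-1, a plant-based formulation, and were sampled on 6 arrays each, at weeks 3 to 18. Weeks were counted from day 14, so day 14 and week 0 stand for the same time on the diet. Each diet had a single array at a time point, so time points served as the replicates, and whether the RNA of an array came from 1 mouse or a pool was not stated. Levels are log2 of the processed signal minus the 75th percentile of the same array, so a level of 0 is the signal that 75% of the probes do not exceed.

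The enzymes act in a fixed order. Hmgcs1 makes HMG-CoA, the precursor of mevalonate, Idi1 and Fdps turn the mevalonate-derived isoprene units into farnesyl diphosphate, Fdft1 joins these into squalene, and Sqle, Lss and Cyp51 oxidise, fold and demethylate squalene on the way to cholesterol. The genes are textbook targets of SREBP-2, a membrane-bound transcription factor that SCAP carries out of the endoplasmic reticulum when sterol is low. The Insig1 protein holds SCAP back, and Insig1 is itself an SREBP target. Fat cells store much of the body's free cholesterol but make little of it compared with liver, and in them the same family of factors, through Srebf1, also drives fatty acid synthesis.

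The region just upstream of the start of each gene is where SREBP and its partner factors NF-Y and Sp1 act in many of these genes, so the 250 bases before the start are shown for the 5 genes with an entry in the RefSeq promoter table used (build GRCm38.p6, read 5′ to 3′ on the gene's strand). Capitals mark matches on either strand to TCACNCCAC (a sterol-element-like motif), CCAAT (the NF-Y box, ATTGG on the other strand) and GGGCGG (the Sp1 box, CCGCCC on the other strand), and no match overlapped another. Sqle, Fdps and Fdft1 had no entry.
Hmgcs1: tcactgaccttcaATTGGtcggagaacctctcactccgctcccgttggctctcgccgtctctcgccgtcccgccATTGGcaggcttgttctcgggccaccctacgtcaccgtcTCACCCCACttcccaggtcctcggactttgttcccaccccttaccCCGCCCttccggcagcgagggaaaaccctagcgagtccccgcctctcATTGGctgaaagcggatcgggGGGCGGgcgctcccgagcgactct
Idi1: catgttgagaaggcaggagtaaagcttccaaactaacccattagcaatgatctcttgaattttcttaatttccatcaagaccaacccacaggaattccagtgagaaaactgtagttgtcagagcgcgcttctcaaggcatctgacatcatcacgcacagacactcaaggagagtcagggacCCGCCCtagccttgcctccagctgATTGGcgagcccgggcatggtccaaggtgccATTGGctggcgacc
Lss: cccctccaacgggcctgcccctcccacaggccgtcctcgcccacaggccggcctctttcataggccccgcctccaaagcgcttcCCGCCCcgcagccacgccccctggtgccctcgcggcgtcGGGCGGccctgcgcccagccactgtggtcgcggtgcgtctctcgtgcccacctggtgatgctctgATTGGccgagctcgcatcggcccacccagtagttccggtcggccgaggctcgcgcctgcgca
Cyp51: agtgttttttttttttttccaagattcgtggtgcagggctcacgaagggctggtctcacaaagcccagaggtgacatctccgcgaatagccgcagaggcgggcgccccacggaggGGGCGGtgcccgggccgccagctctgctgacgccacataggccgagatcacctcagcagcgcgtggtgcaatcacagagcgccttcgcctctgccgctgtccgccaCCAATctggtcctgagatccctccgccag
Insig1: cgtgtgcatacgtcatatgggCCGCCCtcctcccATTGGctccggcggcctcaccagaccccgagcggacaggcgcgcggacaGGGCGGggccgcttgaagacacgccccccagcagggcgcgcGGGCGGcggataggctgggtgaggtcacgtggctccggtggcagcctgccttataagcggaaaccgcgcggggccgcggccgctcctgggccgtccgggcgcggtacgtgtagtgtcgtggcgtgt
The Hmgcs1 window, at chr13:119690101-119690350 on the plus strand, held 1 sterol-element-like match with its first base at position -137 from the start, 3 NF-Y boxes and 2 Sp1 boxes. The Idi1 window, at chr13:8885356-8885605 on the plus strand, held 2 NF-Y boxes and 1 Sp1 box. The windows of Lss (chr10:76531355-76531604, plus strand), Cyp51 (chr5:4104698-4104947, minus strand) and Insig1 (chr5:28071162-28071411, plus strand) held 1 NF-Y box each, with 2, 1 and 3 Sp1 boxes. An NF-Y box and an Sp1 box were both found in all 5 windows, and in 3618 of the 32851 windows of this length in the table. Counted with or without the other box, the NF-Y box was found in 33.8% of all windows and the Sp1 box in 32.7%. The sterol-element-like letters were found in 1.05%. A match describes the letters only and is not evidence of binding.

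The 39 arrays were not of equal quality. On 37 of them the 75th percentile was 119.5 to 1472 signal units and 53.7 to 79.6% of spots were well above background. On these, 21 to 387 spots were called outliers by the scanner software. HF5 week 9 was the lowest of the 37 for the 75th percentile (119.5) and for spots well above background (53.7%). Its median rank correlation with the other arrays, 0.902, was the lowest of the 37 as well. The LFC week 3 array had 16431 outlier spots and a median rank correlation with the other arrays of 0.694, against 0.902 to 0.952 for the 37, and the HFC week 12 array had 10531 outlier spots. Both were used in the tests without their outlier spots, which removed Fdps and Insig1 from both arrays and Fdft1 from LFC week 3, and both were left out of correlations and of ranges over the 37 arrays, while the levels given for a diet include them. All 8 adipocyte markers, among them Adipoq and Fabp4, were well above background on all 39 arrays. All day arrays carry later scan dates than all week arrays, so scan period and the day arrays cannot be told apart. In tissue RNA, fewer cells of a type and less RNA per cell cannot be told apart either.

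The 8 genes moved over a wide range and moved together. Fdps spanned 5.81 log2 units over the 37 arrays, Insig1 5.21 and Fdft1 4.90. The measured spans of Lss (7.81) and Cyp51 (8.05) each end on an array where the probe was not well above background, so their lower ends are bounds and the order of the pair is not known. Hmgcs1 (3.49), Sqle (3.47) and Idi1 (3.15) spanned less. The SD of Lss, 1.75 with those bounds taken at their value, was above that of 95.7% of the 28045 probes measured, and those of Cyp51 (1.55), Fdps (1.36), Fdft1 (1.33) and Insig1 (1.28) were above 88.0 to 93.6% of them. The SD of Idi1 was 0.74, near the median of all probes, 0.72.

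Pearson's r between pairs of the 8 genes ran from 0.560 (Idi1 with Fdft1) to 0.943 (Fdps with Lss), with a median of 0.736 over the 37 arrays. The 30 arrays of weeks 0 to 18 were scanned in 1 period, but on several dates. Within them the pairs ran from 0.407 to 0.929 with a median of 0.731. Without the 4 arrays with the highest mean of the 8 genes, the median pair was at 0.539 and the lowest at 0.301 (33 arrays). Leaving out arrays chosen by the same genes narrows their range and by itself lowers r. Arrays share the animals' feeding period, the signal scale and the scan, and these correlations describe them without a test. The second probes of Hmgcs1, Idi1, Lss, Cyp51 and Insig1 tracked the brightest ones (r 0.770 to 0.959), while the dim second probe of Fdft1 ran against it (r -0.73).

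Each gene was centred on its mean over the 37 arrays, and the mean of the 8 centred levels gave 1 value per array. The mean rests on 5 genes on LFC week 3 and on 6 on HFC week 12. In LFC this mean was 1.98 at day 1, 2.54 at day 6, 0.20 at day 10, -0.15 at day 14 and -0.71 at week 0. From week 3 on the LFC values were -0.52, -0.29, -0.11, 2.71, -1.07 and 0.03. The control diet thus had 3 high arrays, day 1, day 6 and week 12, and 8 that lay between -1.07 and 0.20. In HFC the mean was 2.10 at day 6, 1.04 at day 10, 0.96 at day 14 and -0.32 at week 0, then 1.07 at week 3, -0.18, -1.02, -0.97, -1.29 and 0.04 at week 18. The HFC arrays were high at day 6 and low from week 9 to week 15. HF5 ran from -1.72 at week 9 to 0.19 at week 18, HF20 from -0.98 at week 15 to 0.88 at week 6, and HF75 from -1.50 at week 15 to 0.96 at week 12. The mean ± SD was 0.77 ± 1.41 over the 5 early LFC arrays (days 1 to 14 and week 0), 0.13 ± 1.32 over the 6 late ones (weeks 3 to 18), 0.95 ± 0.99 over the 4 early HFC arrays and -0.39 ± 0.88 over the 6 late ones. In weeks 3 to 18 it was -0.89 ± 0.70 in HF5, 0.03 ± 0.75 in HF20 and -0.39 ± 0.87 in HF75 (n = 6 each), so all groups overlapped.

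**Figure D1:**
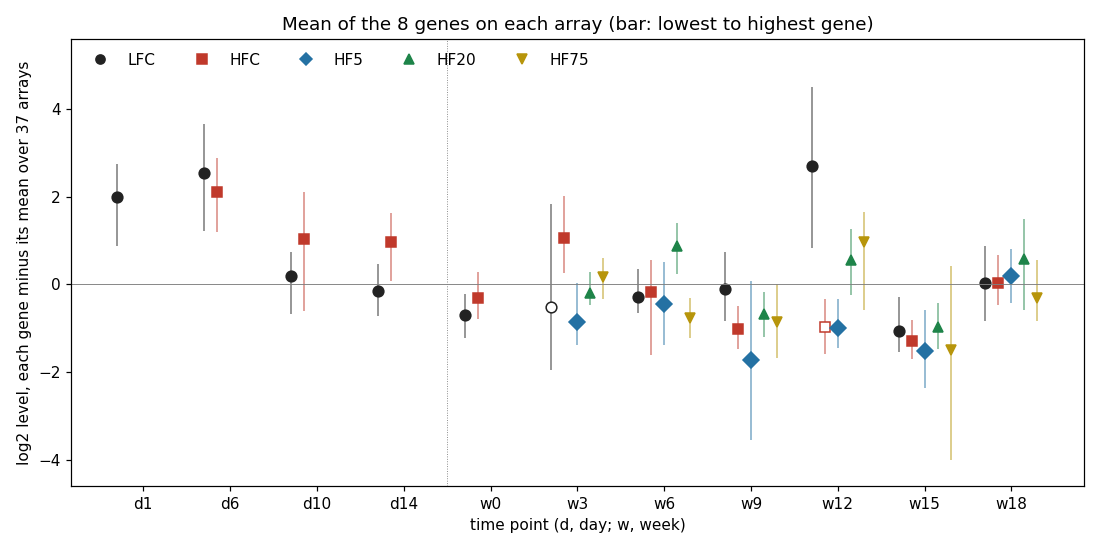
The mean of the 8 genes on each array (log2, each gene minus its mean over 37 arrays) against the time point, by diet; the bar runs from the lowest to the highest gene, open symbols are the arrays that stand apart and the dotted line divides the scan periods. LFC is at 2.71 at week 12 and all other arrays of weeks 0 to 18 lie between -1.72 and 1.07.

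The week 12 arrays held both the highest value of the series, LFC at 2.71, and values near -1 in HFC (-0.97) and HF5 (-1.01), with HF20 at 0.55 and HF75 at 0.96 between them. The titles of 3 of these 5 arrays, LFC, HF20 and HF75, name no week and their time point comes from another label, and these are the 3 arrays with the higher values. Whether the labels of these arrays bear on the result was not tested. The 75th percentile of the signal was 1184 units on LFC week 12, and the mean of the 8 genes correlated with log2 of that percentile at r 0.471 over the 37 arrays, at 0.487 within weeks 0 to 18 (30 arrays) and at -0.04 within days 1 to 14 (7 arrays). The part of signal strength in the result was not tested.

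Markers of fat cells and of other tissues were followed beside the 8 genes, because fat pads can hold other cell types. The median level of the 8 adipocyte markers correlated with the mean of the 8 genes at r 0.738 over the 37 arrays and at 0.673 over the 30 of weeks 0 to 18, and their summed level at 0.399. Lipe (0.803), a lipase of stored fat, Retn (0.798), the hormone resistin, and Plin1 (0.723), a lipid droplet coat protein, were highest. Adipoq was at 0.561, Lep at 0.453, Pparg at 0.321 and Cidec at 0.126, and Fabp4, a fatty acid carrier, was at -0.45. At week 12 the median adipocyte marker was 5.72 in LFC, 5.62 in HF20 and 5.41 in HF75, against 2.59 in HFC and 2.39 in HF5, so it split the week 12 arrays as the 8 genes did. It was 5.81 on LFC day 1, 6.37 on LFC day 6 and 5.92 on HFC day 6. It ran from 3.96 to 5.92 over the 4 early HFC arrays and from 2.05 to 5.97 over the 5 late ones without week 12. The summed level (log2 of the summed linear values) of 5 brown fat markers correlated with the mean of the 8 genes at r 0.811 over the 37 arrays and ran from -0.67 to 6.34, with its highest value on LFC week 12 and 4.83 on LFC day 6. Marker by marker, r was 0.827 for Cox8b, a subunit of cytochrome c oxidase, 0.807 for Ppargc1a, a coactivator of mitochondrial genes, 0.598 for Cidea, a lipid droplet protein, and 0.548 for Dio2, which activates thyroid hormone. On LFC week 12 the highest of the 5 were Cidea at 5.67 and Cox8b at 4.8. Ucp1, the defining uncoupling protein of brown fat, was at r -0.10 and stood at -3.11 on LFC week 12, against a highest level of -0.46 on HF5 week 6. The range of the summed level was 0.01 to 4.83 in early and 0.42 to 6.34 in late LFC arrays, and 0.09 to 3.88 in early and -0.56 to 3.07 in late HFC arrays. By their summed level, macrophage markers were at r -0.48, Leydig cell markers at -0.52, liver markers at 0.477 and epididymis markers at -0.19. Well above background on all 39 arrays were 5 of 6 macrophage, 2 of 6 Leydig cell, 0 of 4 liver and 0 of 7 epididymis markers. The part of these markers in the results was not tested.

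Hmgcs1, the first enzyme, was of the 8 genes the one least like the mean of the other 7 by Pearson's r (0.691). By rank correlation Idi1 was the least alike (0.595), followed by Sqle (0.684) and Hmgcs1 (0.692). The Hmgcs1 level in LFC was 4.37 at day 1, 4.94 at day 6 and 4.11 at week 12. At the other times up to week 18 it was 1.79 to 3.40. In HFC it was 5.07 at day 6 and reached its highest level of all arrays, 5.29, at week 3, with 1.94 at week 15. It was 1.80 to 3.80 in HF5, 2.09 to 4.76 in HF20 and 2.06 to 3.77 in HF75. Unlike the other 7 genes, Hmgcs1 was not highest on an LFC array.

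Idi1, which isomerises the isoprene units, moved least. Its level was 1.82 and 2.15 on LFC days 1 and 6, -0.02 to 1.68 at other times and 3.07 at week 12. On the HFC diet it was 2.12 at day 6 and between -0.06 and 1.74 afterwards. At week 12 it was 1.85 in HF20 and 2.17 in HF75 but 0.30 in HF5, so the high and low arrays of week 12 separated for this gene as for the mean.

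Fdps, farnesyl diphosphate synthase, was the gene closest to the mean of the other 7 (r 0.963). In LFC its level was 3.00, 3.43, 1.00, 0.40 and -0.19 from day 1 to week 0, then 0.03, -0.35, 3.44, -1.03 and 0.69 from week 6 to week 18. In HFC it was 2.82, 1.63, 0.70 and 0.17 from day 6 to week 0, then 1.56, -0.11, -1.19, -1.07 and 0.23 at weeks 3, 6, 9, 15 and 18. Both diets were highest at day 6 among the early arrays, and LFC week 12 was as high as LFC day 6. In HF5 it was -0.84, -0.35, -2.37, -0.82, -1.14 and 0.03 at weeks 3 to 18. In HF20 it ran from -0.62 to 1.28 and in HF75 from -1.50 to 1.07. The lowest level of all arrays was that of HF5 at week 9, the array with the lowest 75th percentile.

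Fdft1, squalene synthase, makes the first product that leads only to sterols. In LFC its level was 2.22, 2.04, 0.20, 0.09 and -1.59 from day 1 to week 0, then -0.77, -1.20, 1.36, -1.75 and 0.51 from week 6 to week 18. Its HFC levels were 1.52, 1.35, 1.26 and -1.0 from day 6 to week 0, then 0.00, -0.48, -1.81, -1.95, -1.65 and -0.42 from week 3 to week 18. The 3 HFC day arrays were close to each other and week 0 lay well below them. In HF5 it was -1.75, -0.96, -2.68, -1.72, -2.46 and 0.45. In HF20 it was -0.52, 1.04, -0.53, 0.56, -1.38 and 0.96, and in HF75 -0.40, -1.13, -2.04, 1.14, -2.08 and 0.19. The week 18 arrays of the 3 KAL-1 groups were all above 0 and those of week 15 all below -1.

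Sqle, squalene epoxidase, uses oxygen to start the closing of the sterol rings. In LFC its level was 1.48, 1.65, 0.10, -0.06 and -0.47 from day 1 to week 0 and -2.18, -0.41, 0.45, 2.20, -1.14 and -1.04 from week 3 to week 18. In HFC it was 1.63, 0.33, 0.74 and 0.08 from day 6 to week 0 and 0.04, -0.16, -0.86, -1.16, -1.02 and -0.68 from week 3 to week 18. All 6 late HFC arrays were below all 4 early ones. In the KAL-1 groups, sampled from week 3 to week 18 only, Sqle ran from -1.27 to 0.29. Over the same weeks LFC ran from -2.18 at week 3, on the array that stands apart, to 2.20 at week 12. The other late LFC arrays ran from -1.14 to 0.45, a range close in width to that of the KAL-1 groups.

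Lss folds squalene epoxide into lanosterol. In LFC its level was -0.31, 0.87, -2.33, -3.23 and -3.83 from day 1 to week 0 and -0.95, -3.46, -3.63, 1.00, -4.33 and -2.12 from week 3 to week 18. HFC arrays gave 0.09, -0.68, -1.46 and -3.58 from day 6 to week 0 and -1.10, -3.71, -3.89, -3.24, -4.17 and -2.35 from week 3 to week 18. Week 0 was below the day arrays in both diets, and week 12 was the only LFC array past week 0 that reached the level of day 6. In HF5 it was -3.89, -4.19, -5.64, -4.26, -5.16 and -2.24, in HF20 it ran from -3.66 to -1.29 and in HF75 from -6.81 to -1.15. The levels of HF5 week 9 and HF75 week 15 were not well above background, so they are bounds.

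Cyp51 is the sterol demethylase that acts on lanosterol. In LFC its level was 0.02, 0.71, -1.99, -2.27 and -2.75 from day 1 to week 0 and -2.54, -2.19, -2.28, 1.96, -3.68 and -2.65 from week 3 to week 18. In HFC it was -0.31, -1.48, -1.03 and -2.57 from day 6 to week 0 and -1.26, -1.98, -4.02, -2.87, -4.24 and -2.88 from week 3 to week 18. LFC week 12 lay far above the other 5 late LFC arrays, which ran from -3.68 to -2.19. In HF5 it was -3.76, -3.15, -6.09, -3.60, -4.50 and -2.43, in HF20 it ran from -4.01 to -1.71 and in HF75 from -4.90 to -1.12. The level of HF5 week 9 was not well above background.

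Insig1, the sterol-sensing brake on SREBP, followed the enzymes (r 0.912 with the mean of the other 7). In LFC its level was 0.68, 1.98, -0.99, -1.86 and -1.95 from day 1 to week 0 and -1.68, -1.51, 1.98, -2.29 and -0.58 from week 6 to week 18. The level in HFC was 1.27, 0.42, -0.48 and -1.65 from day 6 to week 0 and -0.32, -2.75, -1.96, -2.80 and -1.03 at weeks 3, 6, 9, 15 and 18. LFC day 6 and LFC week 12 were equal to 2 decimals. It ran from -2.49 to -0.39 in HF5, from -2.53 to -0.44 in HF20 and from -3.23 to 0.35 in HF75.

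**Figure D2:**
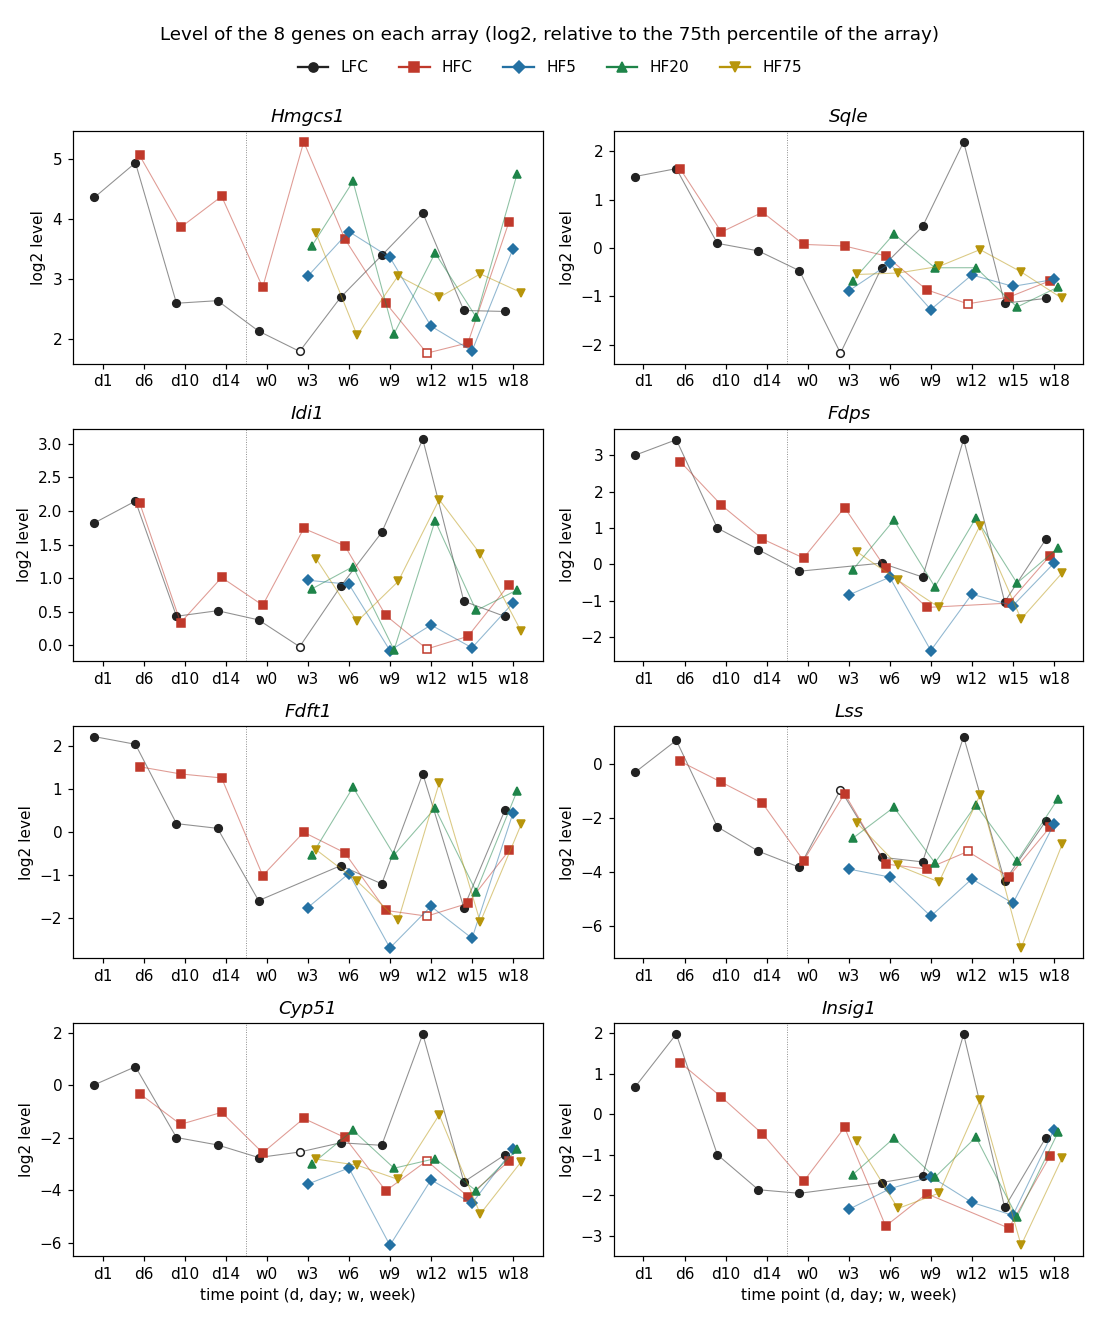
Level of each of the 8 genes on each array (log2, relative to the 75th percentile of the array) against the time point, by diet; open symbols are the arrays that stand apart and the dotted line divides the scan periods. LFC week 12 is the highest of the 37 arrays for Sqle, Idi1, Fdps, Lss and Cyp51. HF5 week 9, the array with the lowest 75th percentile, is the lowest of the 37 for Sqle, Idi1, Fdps, Fdft1 and Cyp51.

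The first comparison asked whether the high fat diet shifted the 8 genes at the 10 time points that LFC and HFC share. No gene passed an adjusted p of 0.05 with limma (Benjamini-Hochberg over all probes), none had an unadjusted p below 0.05, and 0.00% of the 29169 probes tested were called. The median difference of HFC minus LFC over the 8 genes was -0.12 log2, beside 0.03 over all probes tested, and 7 of 8 were lower in HFC (5 with arrays scaled to their median, 6 with normexp or quantile values). Hmgcs1 was the exception at 0.62 (SE 0.46, n = 10 time points), and Cyp51 lay lowest at -0.50 (SE 0.50). The sign followed the time point. At day 6 the median difference was -0.56, with 1 of 8 genes higher in HFC. At days 10 and 14 and week 0 it was 0.89, 1.21 and 0.33, with 7, 8 and 8 of 8 genes higher. At week 3 it was 1.76, with 4 of the 5 genes measured on both arrays higher, on the LFC array that stands apart. At week 6 it was 0.23, with 5 of 8 higher. At week 9 it was -0.82, with no gene higher. At week 12 it was -3.33, with none of the 6 genes measured on both arrays higher, on the HFC array that stands apart. At weeks 15 and 18 it was -0.27 and -0.24, with 3 of 8 genes higher. Without week 12 the median over time points was 0.17.

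At weeks 3 to 18, where all 5 diets were sampled, no gene passed in the comparison of HFC with LFC and none had an unadjusted p below 0.05 (limma, 0.00% of 31450 probes called). The median difference was -0.60 beside 0.06 over all probes, from -0.98 for Cyp51 (SE 0.57) to 0.38 for Hmgcs1. Without week 12 it was -0.11.

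With the 4 high fat groups averaged and set against LFC, 7 of the 8 genes were lower (5 with arrays scaled to their median, 6 with quantile values) and the median was -0.61 beside 0.04 over all probes. Cyp51 was lower by the most, at -1.28 (SE 0.45). Lss was at -1.07 (SE 0.44), Fdps at -0.85 (SE 0.36), Insig1 at -0.74 (SE 0.40) and Fdft1 at -0.48 (SE 0.37). The Lss and Cyp51 differences include high fat arrays where the probe was not well above background, so they rest in part on bounds. Idi1 (-0.33), Sqle (-0.25) and Hmgcs1 (0.31) were within 1 SE of 0. None passed with limma (adjusted p 0.757 to 0.870), and 0.00% of all probes were called. At an unadjusted p below 0.05, 3 of the 8 genes were lower, beside 3.31% of all probes. Week 12 decided the size: without it the median was -0.20, Cyp51 was at -0.63, Lss at -0.57 and Fdps at -0.38, and Sqle turned to 0.24. At week 12 all 4 high fat groups were below LFC in every gene measured.

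The KAL-1 comparisons asked whether a dose changed the 8 genes on the high fat diet. All 3 doses were compared with the same 6 HFC arrays, of which week 12 stands apart, and were not tested against each other. In HF5 all 8 genes were lower than in HFC, with a median of -0.40 beside -0.03 over all probes, but 7 were lower with quantile values and 5 with arrays scaled to their median, where the median of all probes was itself 0.32. Lss was at -1.15 (SE 0.56), Fdps at -1.07 (SE 0.43, adjusted p 0.954 with limma) and Sqle at -0.11. HF5 week 9 was an array of weak signal, with Lss and Cyp51 not well above background, so their differences rest in part on bounds. At week 9 the median difference was -0.70, with 2 genes higher and 6 lower, and Lss was at -1.75. With each time point left out in turn, the median of the 8 genes ran from -0.59 to -0.22. None passed, with 0.00% of all probes called, and 1 of 8 was lower at an unadjusted p below 0.05, beside 2.30% of all probes. At week 3 all 8 genes were lower in HF5, with a median difference of -2.13, and without week 3 the median over weeks was -0.22. Without the 2 arrays that stand apart it was -0.76.

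In HF20 all 8 genes were higher than in HFC, with a median of 0.20 beside -0.07 over all probes, but 5 were higher with normexp values. Fdft1 was at 1.07 (SE 0.43, adjusted p 0.780 with limma) and was higher at 5 of 6 weeks, and Cyp51 was at 0.03. None passed, with 0.00% of all probes called, and 1 of 8 was higher at an unadjusted p below 0.05, beside 1.52% of all probes. The median difference by week was -1.41 at week 3, with no gene higher, and 1.14, 0.43, 1.70, 0.33 and 0.52 at weeks 6 to 18, with 6 or 7 genes higher each time. Without week 3 the median was 0.61, without week 6 0.08 and without the arrays that stand apart 0.06.

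In HF75, 4 genes were higher and 4 lower (6 higher with arrays scaled to their median, 3 with normexp values), with a median of -0.07 and a range from -0.48 (Fdps) to 0.33 (Fdft1). The mean of the 3 doses gave a median of -0.04, from -0.47 (Fdps) to 0.31 (Fdft1). In neither did a gene pass or have an unadjusted p below 0.05 (limma, 0.00% of all probes called in both). The median of HF75 turned to 0.14 without week 3 and was -0.36 without week 12, and that of the 3 doses turned to 0.18 and was -0.30.

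**Figure D3:**
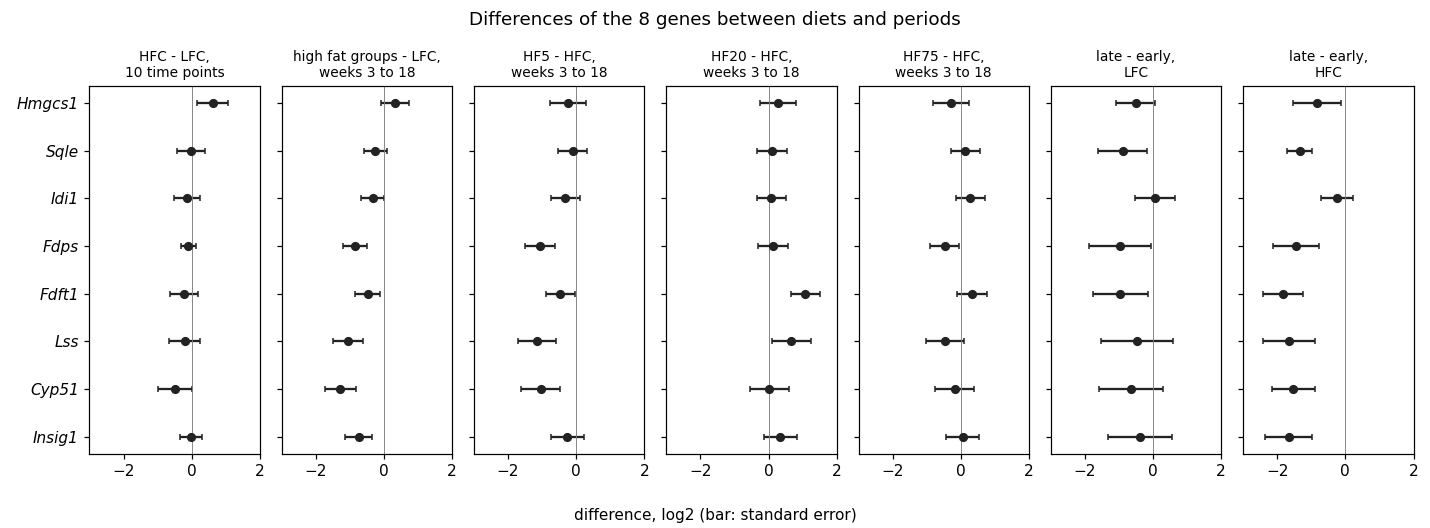
Difference of each of the 8 genes in 7 comparisons (log2, point) with its standard error (bar), from fits across all probes. The HFC late minus early panel has all 8 points below 0, and no point in any panel passed an adjusted p of 0.05.

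Within one diet, late arrays (weeks 3 to 18) were compared with early ones (days 1 to 14 and week 0). In HFC all 8 genes were lower late, also with normexp, quantile and array median values, with a median of -1.49 beside 0.03 over all probes. Fdft1 was at -1.83 (SE 0.58), Lss at -1.67 (SE 0.76), Insig1 at -1.66 (SE 0.69) and Cyp51 at -1.53 (SE 0.63). Fdps was at -1.44 (SE 0.68), Sqle at -1.33 (SE 0.37), Hmgcs1 at -0.84 (SE 0.70) and Idi1 at -0.24 (SE 0.46). None passed with limma (adjusted p 0.216 to 0.785, smallest for Sqle), and 0.00% of the 30582 probes were called. At an unadjusted p below 0.05, 4 of the 8 genes were lower late, beside 8.80% of all probes. Sqle was the gene whose late arrays all lay below its early ones, as they did for 2.02% of all probes. Without week 0, Fdft1 passed, beside 2.48% of all probes, with the median of the 8 at -1.88. The dim second probe of Fdft1 lay the other way over all HFC arrays, at 1.17 late minus early (SE 0.52, adjusted p 0.292 with limma).

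The day arrays carried that difference. With week 0 as the only early array, all arrays compared lay in 1 scan period, but on several scan dates. The median of the 8 genes was then -0.08 in HFC, and Lss was at 0.51, Hmgcs1 at 0.34 and Idi1 at 0.18. Week 0 and day 14 are the same time on the diet, and the mean of the 8 genes was -0.32 at week 0 and 0.96 at day 14 in HFC, and -0.71 and -0.15 in LFC. The mean of the 8 genes ran from -0.15 to 2.54 with a median of 1.04 over the 7 arrays of days 1 to 14, and from -1.72 to 2.71 with a median of -0.31 over the 30 of weeks 0 to 18. Age, time on the diet and scan period cannot be told apart in this comparison.

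In LFC 7 of the 8 genes were lower late (8 with arrays scaled to their median, 6 with normexp values), with a median of -0.58 beside -0.09 over all probes. Fdps was at -0.97 (SE 0.92), Sqle at -0.89 (SE 0.71) and Idi1 at 0.06. None passed or had an unadjusted p below 0.05 with limma, where 0.490% of the 30421 probes were called. Without week 12 the median was -1.26, without day 6 it was -0.13, and with week 0 as the only early array it was 0.80. The change from early to late in the difference of HFC minus LFC had a median of -0.94 beside 0.15 over all probes, with all 8 genes lower under each scaling, Lss at -1.55 (SE 0.88) and Insig1 at -1.21 (SE 0.55). No gene passed (adjusted p 0.841 for Insig1 with limma) or had an unadjusted p below 0.05, 0.00% of all probes were called, and the median was -0.49 without week 12. This comparison shares its arrays with those above.

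The other genes of the pathway were followed in 5 lists. Of 15 other enzymes of cholesterol synthesis, 12 were lower late in HFC and 3 had an unadjusted p below 0.05 beside 16.8% of all probes, and 13 were lower in the high fat groups than in LFC, but 7 with arrays scaled to their median. Of 13 genes of fatty acid synthesis, 12 were lower in both of these comparisons (8 in the high fat groups with arrays scaled to their median), with 2 at an unadjusted p below 0.05 in each, beside 16.8% of all probes late in HFC and 6.10% in the high fat groups. Elovl6, which elongates saturated fatty acids, was at -1.88 in the high fat groups (SE 0.49, adjusted p 0.757 with limma), and Fads1, a fatty acid desaturase, was at -1.32 late in HFC (SE 0.36, adjusted p 0.219). Of 11 genes of cholesterol efflux, esterification and oxysterols, 8 were higher late in HFC (6 with arrays scaled to their median) and 10 were higher in the high fat groups (9 to 11 under the other scalings), among them Lipa, the lysosomal acid lipase, at 1.1 (SE 0.29, adjusted p 0.757 with limma). Of 8 genes of uptake and transport, 3 were higher late in HFC (2 to 4 under the other scalings) and 6 in the high fat groups. Of 6 genes of SREBP regulation 1 was higher late in HFC, and all 6 were higher in the high fat groups (4 with normexp values). No gene of any list passed in any of the 10 comparisons.

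The other comparisons of the lists are given by their strongest gene. In 7 of these comparisons the list gene with the smallest unadjusted p was Acly over 10 time points (p 0.0208), Elovl6 for HFC against LFC at weeks 3 to 18 (p 0.00598), Mbtps2 in HF20 (p 0.0309) and for the mean of the doses (p 0.113), Fads1 in HF5 (p 0.0845), Fads2 late in LFC (p 0.0748) and Scarb1 for the change in the diet difference (p 0.0177), all by limma before adjustment across the probes tested. In HF20 the same direction as in the 8 genes was seen in 12 of 15 other synthesis enzymes and 12 of 13 fatty acid genes, and in HF5 in 9 of 15 and 9 of 13, which became 2 and 6 with arrays scaled to their median.

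How alike a gene was to the 8 was measured by Pearson's r with their mean over the 37 arrays, for 20101 gene names. The highest outside the 8 was Csl (0.957), a citrate synthase-like gene, followed by LOC100044117 (0.946), named as similar to a pyruvate dehydrogenase component, 1110038D17Rik (0.943) and Slc25a1 (0.942), the mitochondrial citrate carrier that supplies carbon for acetyl-CoA in the cytosol. LOC634846 (0.939) is named as similar to Fdps, and its probe may share signal with Fdps. Scd2 (0.938), a fatty acid desaturase, Gm15770 (0.936), Tlcd2 (0.934), Dlat (0.933), the acetyltransferase of pyruvate dehydrogenase, and Ppif (0.931), a mitochondrial isomerase, completed the 10 highest. Slc25a1 spanned 7.04 log2 units, from -1.71 on HF5 week 15 to 5.33 on LFC week 12, and Scd2 4.78, from 0.99 on HF5 week 9 to 5.77 on LFC week 12, with its probe saturated on 1 array. Of the 20101 names, 1557 had an r over 0.7. With the mean of each time point removed, 4 of these 10 names stayed among the 10 highest, and without LFC week 12 it was 7.

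The median r was 0.784 for the 15 other synthesis enzymes, 8 of which were over 0.7, among them Pmvk (0.901), Tm7sf2 (0.885), Nsdhl (0.882), Sc5d (0.867), Mvk (0.860) and Mvd (0.850). Below 0 were 2 of the 15, among them Lbr, a sterol reductase of the nuclear envelope, at -0.55. The median over all 20101 names was -0.001.

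The factors and the uptake list split. Srebf1 was at r 0.853 and ran from 2.58 on HF75 week 15 to 6.16 on LFC day 6, with its probe saturated on 4 of the 39 arrays, so that its high levels may be bounds. Srebf2, the gene of SREBP-2, was at r 0.153 and ran from -3.22 to -0.35. Stard4, a sterol carrier, was at -0.23, with 3 probes between -0.23 and -0.20. The medians of the SREBP regulation and uptake lists were 0.215 and 0.141, below that of the synthesis enzymes.

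The fatty acid synthesis list had a median r of 0.820, with 9 of 13 genes over 0.7, among them Acaca (0.915), Elovl6 (0.864) and Mlxipl (0.863). Of the 13, 1 gene was below 0, Elovl5 at -0.36. Fasn was at 0.524 by its brightest probe, which was saturated on 19 arrays, and at 0.905 by its second probe. In the list of efflux, esterification and oxysterols 9 of 11 genes were below 0, with a median of -0.43. Mylip, a ubiquitin ligase induced by LXR, was at -0.81, Ch25h, which makes an oxysterol, at -0.76, Nceh1 at -0.73 and Abca1, the cholesterol exporter, at -0.21. The medians of the synthesis and efflux lists thus lay on opposite sides of 0 across the same arrays. With the mean of each time point removed, Abca1 turned to 0.39, while Mylip (-0.62), Ch25h (-0.56) and Nceh1 (-0.45) stayed below 0. The sign of Abca1 thus depended on the setting.

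**Figure D4:**
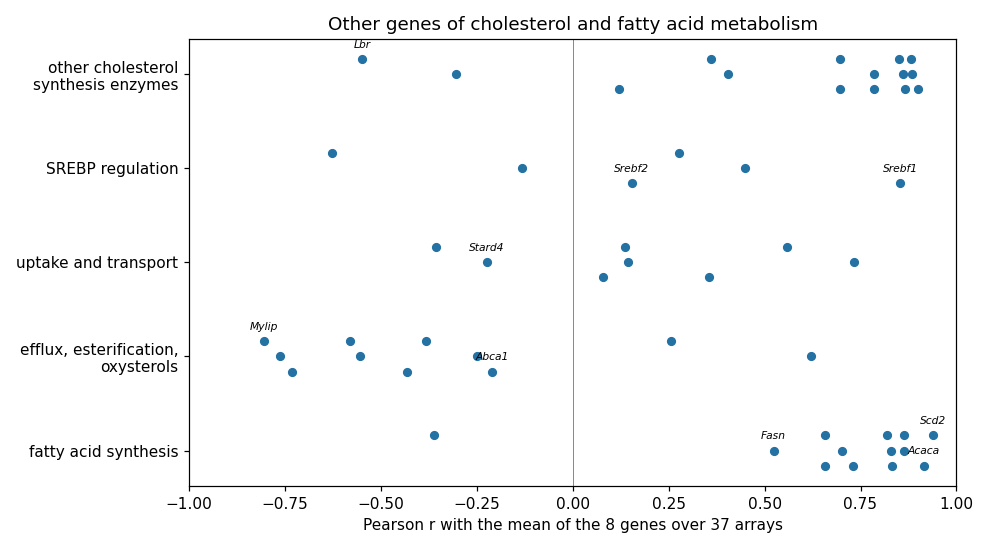
Pearson's r of each gene of the 5 lists with the mean of the 8 genes over 37 arrays (x axis), 1 point per gene and 1 row per list; the vertical place within a row has no meaning. Synthesis enzymes and fatty acid genes crowd at the right (medians 0.784 and 0.820). To the left of 0 lie 2 synthesis enzymes, Lbr among them, 1 fatty acid gene and most efflux genes.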

How the data were processed

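Gene expression in epididymal fat was measured on 39 Agilent 1-colour arrays. The deposited scanner files hold signal intensity per spot, background-subtracted by Feature Extraction (10.5.1.1 per the file headers, 9.1 in the submitters' processing notes), and the authors also deposited a table of log2 ratios, used as an alternative because it was made in GeneSpring from the same arrays. Control spots were left out, outlier spots were set missing, spots of one probe were averaged, and log2 signals were scaled to the 75th percentile of each array. Probes well above background on as many arrays as the smallest group were tested with limma 3.58.1 in R 4.3.3, two-sided, with Benjamini-Hochberg adjustment over all probes tested and a threshold of 0.05. Diet comparisons had the time point as a block, because 1 array per diet and time point makes time points the replicates. The series text names 3 biological replicates, but the files used here hold 1 array each. The p-values of the diet comparisons thus measure how diet differences spread over time points. Those of late against early arrays within a diet measure the spread between time points. Age, animals and array are mixed in both. The number of arrays limits the precision.

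Alternatives were normexp background correction (offset 50), quantile and array median scaling, other filters and probes, outlier spots kept, no block, slide as a random block, array weights, leaving out arrays, a plain paired test and the authors' table. The genes and lists were chosen with earlier results of these data known. Named in the text were all 8 genes, Srebf1, Srebf2, Stard4, Abca1 and Fasn, the list gene of the smallest p in a comparison, and the 10 names most like the mean of the 8. Other list genes named beside their r, and the marker genes singled out, were chosen after their values were seen. Some genes that the rule names are not reported here. The fits were tested on simulated data. Figures were drawn with matplotlib 3.10.9 in Python 3.11.15.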

Additional observations from a re-analysis of the deposited data

Results flagged for a closer look

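Of 56 groups of values tested, 2 held an array far from the others of its group, and chance alone flags about 5% of such groups. Cyp51 on the LFC week 12 array was at 1.96 (log2 level), while the other 5 late LFC arrays ran from -3.68 to -2.19. Fdft1 on the HFC week 0 array was at -1.0, while the other 3 early HFC arrays, all of the later scan period, ran from 1.26 to 1.52. The parts of the week 12 labels and of the scan period in these values were not tested.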

How the results depend on the processing

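The main limit is 1 array per diet and time point, so that 1 array can decide a value. No setting other than those named here changed the number of genes passing. For HFC late against early, limma array weights, which weighted week 0 at 0.48 and week 3 at 0.36, let 6 of the 8 genes pass, but also 25.9% of all probes. Leaving out 1 time point gave 0 to 1 passing gene, the 1 being Fdft1 without week 0 (-2.43). With week 0 as the only early array, a choice made after seeing the data, the median was -0.083 in HFC, and Hmgcs1 (0.34), Idi1 (0.18) and Lss (0.51) in HFC and Sqle (0.12), Fdps (0.75) and Fads2 (0.13) in LFC turned positive. Without the time point as a block (no pairing of arrays), the median of the 8 genes was -0.20 over 10 time points, -0.68 for HFC against LFC at weeks 3 to 18, -0.40 in HF5, 0.33 in HF20, -0.02 in HF75, -0.04 for the mean of the doses and -0.59 for the high fat groups, and no gene passed. With the time point mean removed, 4 of the 10 names most like the 8 genes were kept.

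Scaling by the array median moved the median of all probes from -0.03 to 0.32 in HF5 and from 0.04 to 0.28 in the high fat groups, and turned Sqle in HF5 (0.27), Sqle (0.16) and Idi1 (0.083) in the high fat groups and Idi1 late in LFC (-0.24). Quantile values turned Sqle in HF5 (0.10) and in the high fat groups (0.29). Normexp turned Cyp51 in HF20 (-0.13) and Idi1 late in LFC (-0.059). Without the 2 arrays that stand apart, Cyp51 in HF20 was -0.27, and Fdft1 was -0.047 in HF75 and -0.064 for the mean of the doses. Array weights turned Sqle in HF5 (0.064), Cyp51 in HF20 (-0.071) and Hmgcs1 in the high fat groups (-0.069). Leaving out 1 time point at a time gave -0.14 to 0.38 for Cyp51 in HF20, -0.25 to 0.057 for Sqle in HF5, -0.22 to 0.53 for Fdft1 in HF75 and -0.015 to 0.55 for the mean of the doses, -0.24 to 0.93 for Hmgcs1 in HFC against LFC at weeks 3 to 18, -0.048 to 0.69 for Hmgcs1, -0.65 to 0.0023 for Idi1 and -0.63 to 0.24 for Sqle in the high fat groups, -0.33 to 0.33 for Idi1 late in LFC, -0.47 to 0.13 late in HFC and -0.91 to 0.067 for its change in the diet difference. The cause of these turns was not tested. In all, 722 of 783 differences of the 8 genes kept their sign under the other settings and 563 of 616 when 1 time point was left out, and none turned past the threshold. Slide as a block could be fitted for the diet comparisons only, since no slide holds 2 arrays of LFC or of HFC alone, and the authors' table could not serve the comparisons within a diet.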
